A study of Mus musculus with 2 samples.

Results

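The genes of the perinuclear theca, the rigid cytoskeletal shell between the sperm nucleus and its membranes, were followed through spermatogenesis in single testis cells of wild-type (WT) and Tex13a-knockout (KO) mice. The list holds 9 genes, chosen by name with earlier results of these data known. They include the cylicins Cylc1 and Cylc2, calicin (Ccin) and the capping protein subunit Capza3. The others are the actin-like and actin-related genes Actl7a, Actl7b, Actrt1, Actrt2 and Actl9. All 9 could be tied to 1 row of the count matrix, as could 5476 of the 25065 gene symbols in all. WT testes came from normal adult C57BL/6 mice (C57BL/6N in the methods of the study), and KO testes from mice of that strain in which CRISPR-Cas9 had removed every exon of the X-linked gene Tex13a. No other treatment or transgene is named for either genotype. Each genotype was 1 library, pooled from 3 testes of 3 mice and digested with collagenase I, so animals cannot be separated. Nothing could be tested with a single library on each side, cells are not replicates, and every interval given is a 95% interval that covers counting error only. Genotype and library cannot be told apart.

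The perinuclear theca is built in spermatids. Its anterior part, which includes the acroplaxome, holds the acrosome to the nucleus, and its posterior part, the calyx, covers the back of the head. Cylicins are basic proteins rich in charged repeats, calicin is a basic kelch-repeat protein, and the actin-like proteins are relatives of actin made in haploid germ cells. TEX13A carries a RanBP2-type zinc finger, a domain that binds the single-stranded RNA letters AGGUAA. The comparison of KO with WT addresses what Tex13a does in spermatids, with the late steps of elongation as the stage of interest.

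By GENCODE vM21 on GRCm38 (mm10), 5 of the 9 genes lie on chromosome 4, 2 on the X chromosome and 1 each on chromosomes 6 and 17. Cylc1 lies at chrX:111110418-111125854 on the plus strand and Cylc2 at chr4:51216678-51230272 on the plus strand, with 6 and 5 exons. The other 7 genes are annotated with a single exon: Ccin at chr4:43983483-43985423, Actl7a at chr4:56743413-56744925, Actrt1 at chrX:46329007-46330345, Actl9 at chr17:33432896-33434268 and Capza3 at chr6:140041252-140042778 on the plus strand, and Actl7b at chr4:56740005-56741443 and Actrt2 at chr4:154666433-154667867 on the minus strand. Actl7a and Actl7b point away from each other with 1969 bases between them. Actl7b is overlapped on the other strand by the gene model Gm26657 at chr4:56740070-56741377, whose own row is not analysed here. No source used here says whether reads were counted by strand, so reads of that pair may not be separable.

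The letters AGGTAA, searched on the sense strand of the longest coding transcript, were found in 5 of the 9 genes. They stood in the 3′ UTR of Cylc2 and Actrt1 and in the coding part of Cylc1, Actl7a and Capza3, and not in Ccin, Actl7b, Actrt2 or Actl9. The annotated Cylc1 transcript ends with its coding part, so it has no 3′ UTR to search. Of all 21877 genes with a coding transcript, 30.8% hold the letters, and of the 3946 whose transcript falls within the range of lengths of the 9 genes, 16.9% do. The following windows show the 2 matches in a 3′ UTR and, for comparison, the match in Capza3, the gene whose course was nearly the same as that of Cylc2 in WT; the capitals mark the match.
Cylc2 (last exon, chr4:51229950-51229979, plus strand): aaagcaaactgaAGGTAAgaactccaaagc
Actrt1 (chrX:46330287-46330316, plus strand): gtattagtaggaAGGTAAacatcactcctt
Capza3 (chr6:140042194-140042223, plus strand): agtggatcttccAGGTAAacccgtttctaa
A match is a description of the transcript and not a binding site shown in these cells.

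Promoters from 250 bases before to 50 bases after the start were given by RefSeq on GRCm38.p6 for 7 of the 9 genes, without Cylc2 and Capza3. The full cAMP response element (CRE), TGACGTCA, searched on both strands, was found in 1 of these 7, the promoter of Ccin, and in 1.79% of all 32851 promoters. The window lies at chr4:43983442-43983471, and the capitals mark the letters TGACG, which begin 50 bases before the RefSeq start; that start differs from the GENCODE start given above. These 5 letters are shared by both strands of the CRE, were found in no other of the 7 promoters, and occur on either strand in 20.8% of all promoters.
Ccin (plus strand): tcatccattctaTGACGtcaccctctctcc

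The WT library holds 5170 cells and 45568532 UMIs, and the KO library 7238 cells and 67734689 UMIs, in the 13 clusters that the authors named Sg (spermatogonia), Sc1 and Sc2 (spermatocytes) and Sd1 to Sd10 (spermatids, of which Sd1 also holds spermatocytes). Sd10, the latest, holds 184 WT and 278 KO cells with 1252689 and 1762193 UMIs, and a median of 5271 and 5287 UMIs per cell. Most markers followed this order in both libraries, with Uchl1 highest in Sg, Sycp3 in Sc1, Acrv1 in Sd4, Tnp2 in Sd7 and Oaz3 in Sd10. There were exceptions: of 4 spermatogonial genes Stra8 was highest in Sc1, so that their summed level in WT was 1831 CPM (counts per 1000000 UMIs) in Sg and 4418 in Sc1, and of 8 spermatocyte genes Ccna1 and Ldhc were highest in Sd1, Spag6 in Sd3 and Pgk2 in Sd10. Of the marker lists for somatic cells, no Sertoli or endothelial gene had 1 possible row, and the Leydig marker Cyp17a1 was at 2.40 CPM in Sd10 of WT and 2.27 in KO. Of 3 peritubular genes Myh11 alone had 1 possible row, at 1.597 and 5.107 CPM. Of 5 macrophage genes 2 had 1 possible row, with Cd68 at 0 in Sd10 of both and C1qb at 56.7 and 48.8 CPM. In WT the summed level of these 2 was 0.813 CPM in Sd3, 13.5 in Sd5, 21.6 in Sd7 and 31.7 in Sd9. In KO it was 1.17, 16.6, 25.9 and 31.0 CPM. No cell barcode was shared by the libraries. The symbol Tex13a itself can stand for 7 rows of the matrix, so its level is not analysed here and the labels were not checked against the deleted gene.

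The 9 genes did not peak together. In WT, each of the spermatid clusters Sd4, Sd5, Sd6, Sd7, Sd8 and Sd10 held the highest level of at least 1 of them. Actl7b peaked first, in Sd4, while Actl9 in both libraries and Actl7a in WT were highest in Sd10. In 7 of the 9 genes the same cluster was highest in both libraries. The exceptions were Actl7a and Capza3, and for each of these the 2 highest clusters of the KO library could not be told apart. Their KO peaks moved with the processing, that of Actl7a from Sd5 to Sd4 with thinned cells and that of Capza3 from Sd5 to Sd6, its WT peak, with totals that left out 4 protamine and transition protein genes.

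**Figure D1:**
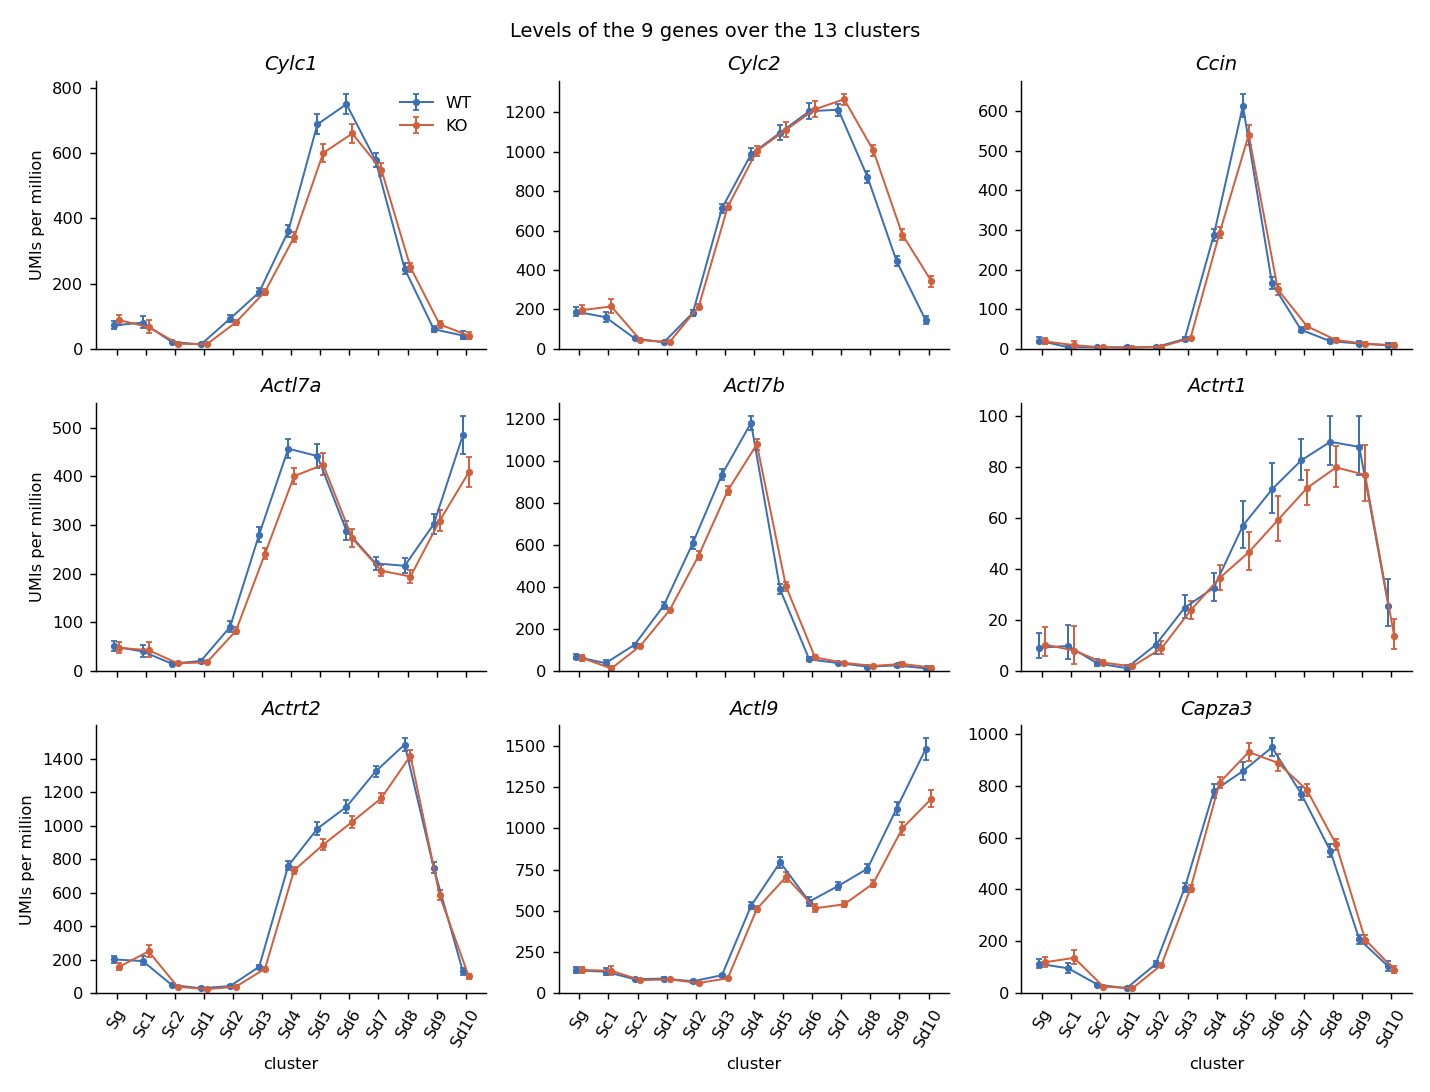
Level of each gene (CPM within the library and cluster, linear axis from 0) in the 13 clusters, in WT (blue) and KO (orange), with exact Poisson 95% intervals. The peaks run from Actl7b in Sd4 to Actl9 in Sd10, and the WT and KO levels of Cylc2 differ most in Sd10.

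Among the cylicins, Cylc1 had its highest level in Sd6, at 749.8 CPM in WT (interval 718.5 to 782.1) and 659.9 in KO (631.3 to 689.4). Its WT level was 13.4 CPM in Sd1, 92.4 in Sd2, 173 in Sd3, 361 in Sd4, 688 in Sd5, 578 in Sd7, 245 in Sd8, 60.3 in Sd9 and 40.7 in Sd10. Its KO level was 13.9 CPM in Sd1, 81.3 in Sd2, 175 in Sd3, 342 in Sd4, 600.1 in Sd5, 549 in Sd7, 249.8 in Sd8, 75.2 in Sd9 and 40.3 in Sd10. The largest step down of Cylc1 stood between Sd8 and Sd9, where the level in Sd9 was 0.246 times that in Sd8 in WT and 0.302 times in KO.

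Cylc2 had a broader course, with at least 50% of its highest level in 6 clusters, Sd3 to Sd8, in both libraries. Its WT level was 32.5 CPM in Sd1, 183 in Sd2, 713 in Sd3, 987.5 in Sd4, 1097 in Sd5, 1206 in Sd6, 1214 in Sd7, 873.5 in Sd8, 446 in Sd9 and 145 in Sd10. Its KO level was 34.8 CPM in Sd1, 214 in Sd2, 721 in Sd3, 1005 in Sd4, 1112 in Sd5, 1216 in Sd6, 1267 in Sd7, 1008 in Sd8, 580.0 in Sd9 and 343 in Sd10. From Sd3 to Sd6 every interval of the KO over WT ratio included 0 on the log2 scale, and from Sd7 on the KO level was the higher in every cluster. The WT levels in Sd6 and Sd7 could not be told apart.

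Ccin, which encodes a main protein of the calyx, had the narrowest course. It was at 614 CPM in Sd5 of WT (interval 585 to 644) and 540.4 in KO (515 to 566). The neighbouring clusters were at 287 CPM in Sd4 and 165.5 in Sd6 of WT, and at 293 and 150.2 in KO. In WT the level in Sd4 was 11.5 times that in Sd3, and the level in Sd7 was 0.291 times that in Sd6. By Sd8 Ccin was at 3.14% of its own peak in WT and 4.09% in KO.

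Of the actin-like genes, Actl7b was the earliest, already climbing from Sc2 to Sd1. A UMI of Actl7b was found in 67.0% of WT Sc2 cells (Clopper-Pearson interval 62.6 to 71.2) and in 62.2% of KO Sc2 cells (58.9 to 65.4), and with each cell thinned to 3000 UMIs in 26.2% and 26.3%. In Sg the thinned shares were 15.5% and 11.4%. Its level was 125 CPM in Sc2, 312 in Sd1, 609 in Sd2, 935 in Sd3 and 1181 in Sd4 of WT, and 120.5, 289, 549.6, 858 and 1079 CPM in KO. It was then at 388 CPM in Sd5 and 55.5 in Sd6 of WT, and at 403 and 64.7 in KO.

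Actl7a, which lies beside Actl7b and encodes an acroplaxome protein, had 2 maxima. In WT it was at 457 CPM in Sd4 (interval 437 to 477.5), at 221 in Sd7 and 216 in Sd8, and at 485 in Sd10 (447 to 525). In KO it was at 424 CPM in Sd5 (402 to 447), at 206 in Sd7 and 194 in Sd8, and at 408 in Sd10 (379 to 439). The early and the late maximum could not be told apart in either library, while the low between them was at 44.6% of the highest WT level and 45.8% of the highest KO level. Across the 13 clusters the correlation of log2(CPM + 1) between the neighbours Actl7a and Actl7b was -0.035 in WT and 0.043 in KO. These correlations describe courses over clusters of the same library, with no test.

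Actl9, whose protein works with ACTL7A in the acroplaxome, also had 2 maxima, of which the late one was the larger. It was at 794.6 CPM in Sd5, 556 in Sd6, 651.5 in Sd7, 756 in Sd8, 1120 in Sd9 and 1482 in Sd10 of WT (interval 1415 to 1551 in Sd10). In KO it was at 706 CPM in Sd5, 516 in Sd6, 539.6 in Sd7, 666 in Sd8, 1001 in Sd9 and 1181 in Sd10 (1131 to 1233). Each of the steps from Sd7 to Sd8, Sd8 to Sd9 and Sd9 to Sd10 was upward, with an interval above 1, in both libraries.

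The ARP-T genes Actrt1 and Actrt2 code for actin-related proteins found in the theca, and both were highest in Sd8. Actrt2 was at 761 CPM in Sd4, 983 in Sd5, 1113 in Sd6, 1324 in Sd7, 1485 in Sd8, 748 in Sd9 and 131 in Sd10 of WT. In KO it was at 733.5 CPM in Sd4, 886.5 in Sd5, 1024 in Sd6, 1165 in Sd7, 1418 in Sd8, 585.5 in Sd9 and 102 in Sd10. Actrt1 gave few UMIs, 1736 in all of WT and 1890 in all of KO. It was at 89.7 CPM in Sd8 of WT (interval 80.5 to 99.7) and 79.7 in KO (71.9 to 88.1). Its levels in Sd8, Sd9 and Sd7, in that order, could not be told apart from one to the next in either library, and in Sd10 it was at 25.5 CPM in WT and 13.6 in KO.

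Capza3, the haploid α subunit of the actin capping protein, was at 780 CPM in Sd4, 856 in Sd5, 948 in Sd6, 769.5 in Sd7, 549.6 in Sd8, 208 in Sd9 and 103 in Sd10 of WT. In KO it was at 812 CPM in Sd4, 929.6 in Sd5, 888 in Sd6, 783 in Sd7, 574 in Sd8, 207 in Sd9 and 91.4 in Sd10. Its partner in the capping protein, Capzb, was at 648 CPM in Sd10 of WT and 613 in KO, against peaks of 690.5 and 679 in Sd6. The late low level of Capza3 was thus not shared by Capzb.

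UMIs of all 9 genes were also found before the spermatid stages. In WT Sg, the 9 genes were at 19.6% (Actl7b) to 35.6% (Actrt2) of their level in the whole library. Prm1, Prm2 and Tnp1, which code for nuclear proteins of elongating spermatids, were at 39.7%, 36.5% and 33.98% of theirs. In WT Sd1, Prm1, Prm2 and Tnp1 were at 7.28%, 8.53% and 5.15%. There Actl7b (90.3%), Actl9 (20.9%) and Actl7a (10.1%) were at higher shares, while the other 6 genes were at 2.98% (Actrt1) to 5.53% (Cylc2). The early clusters differed among themselves: Cylc2 was at 189 CPM in Sg, 161 in Sc1, 53.3 in Sc2 and 32.5 in Sd1 of WT, and at 197, 215, 44.1 and 34.8 CPM in KO. Whether free RNA gave these UMIs was not tested, and no single cluster was taken as the background.

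The levels in Sd10 were set beside those in Sg, the highest of the early clusters for Cylc2 in WT. In Sd10 of WT the levels of Cylc1, Cylc2, Ccin, Actl7b and Actrt2 lay below those in Sg, and that of Capza3 could not be told apart from it. In WT Actl9, Actl7a and Actrt1 were higher in Sd10 than in Sg, by 10.7-fold, 9.59-fold and 2.80-fold. In KO Actl9 and Actl7a were higher by 8.38-fold and 8.56-fold, Actrt1 could not be told apart (1.32, 0.66 to 2.70) and Capza3 was lower (0.76, 0.61 to 0.95). In KO the level of Cylc2 in Sd10 was 1.74 times that in Sg (interval 1.51 to 2.01), against 0.770 times in WT (0.637 to 0.927). Against Sc2, the WT level of Cylc2 in Sd10 was higher, at a log2 ratio of 1.45 (1.18 to 1.70).

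**Figure D2:**
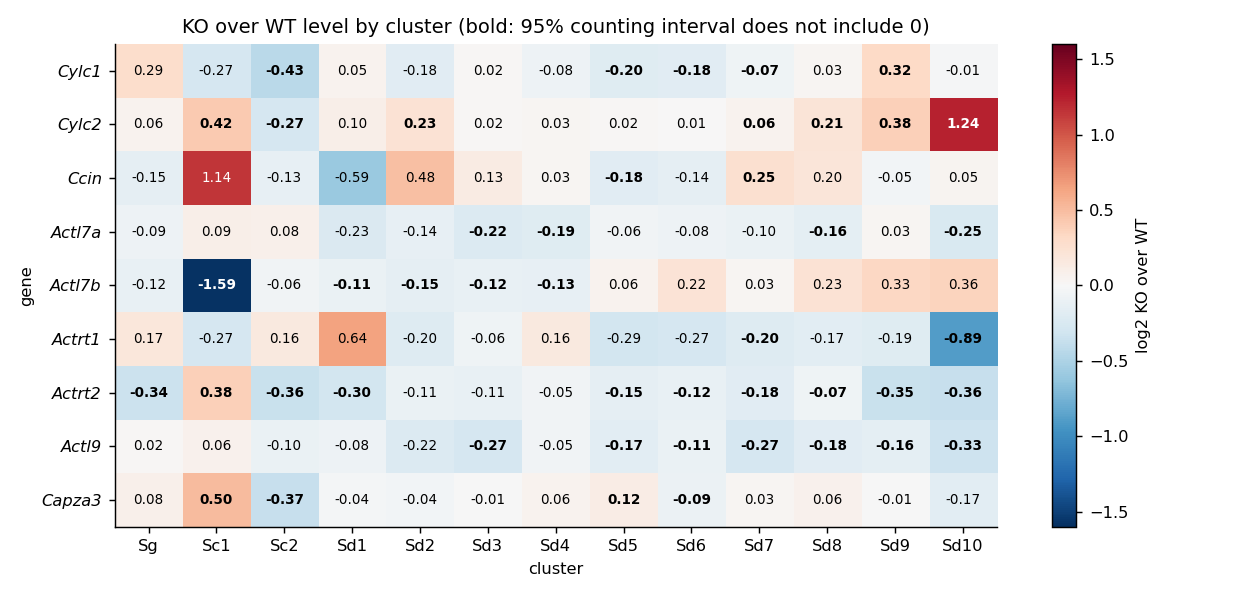
Log2 of the KO level over the WT level for each gene (rows) in each cluster (columns), with a prior of 1 UMI. Red is higher and blue is lower in KO, and bold values have a counting interval that does not include 0; the value of 1.24 for Cylc2 in Sd10 is the highest in the spermatid clusters.

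KO and WT were then compared cluster by cluster. The ratio farthest from 0 belonged to Actl7b in Sc1, at -1.59 (-2.87 to -0.56), from 38 UMIs in WT and 9 in KO, at 37.2 and 12.02 CPM. In Sc1 the ratios of Cylc2 (0.42), Actrt2 (0.38) and Capza3 (0.50) also had intervals above 0, so that 3 of the 9 genes lay above and 1 below, beside 7.39% and 6.02% of all 4289 genes read in Sc1. In Sd9 the KO level was higher for Cylc1 and Cylc2 and lower for Actrt2 and Actl9, with intervals that did not include 0, and the other 5 genes had intervals that included it. Over all 4310 genes read in Sd9, 14.3% had an interval above 0 and 6.71% below it. Relative to the median of all genes, the ratio of Cylc1 in Sd9 was 0.23 (-0.081 to 0.54), so that call was lost, as it was with totals without the protamine and transition protein genes (0.30, -0.009 to 0.615), while Actrt1 (-0.28) came to lie just below 0. In Sd10 Cylc2 was higher in KO, Actl7a, Actrt1, Actrt2 and Actl9 were lower, and Cylc1, Ccin, Actl7b and Capza3 had intervals that included 0. Over all 3674 genes read in Sd10, 11.1% had an interval above 0 and 9.06% below it. The median log2 ratio of the 9 genes was -0.005 in Sd9 and -0.17 in Sd10, beside 0.089 in Sd9 and 0.043 in Sd10 over all genes read.

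Cylc2 was the one gene of the 9 that differed at least 1.5-fold in Sd10 among those read with 100 UMIs or more over the pair of libraries. It had 182 UMIs in WT (145 CPM, interval 125 to 168) and 604 UMIs in KO (343 CPM, 316 to 371), a log2 ratio of 1.24 (0.997 to 1.485) or 2.36-fold. In the clusters before, the log2 ratio was 0.012 in Sd6 (-0.055 to 0.080), 0.062 in Sd7 (0.013 to 0.11), 0.21 in Sd8 (0.14 to 0.27) and 0.38 in Sd9 (0.27 to 0.49). From Sd6 to Sd10 the ratio of Cylc2 was thus larger in each later cluster, while an interval above 0 was also seen in Sd2 (0.23, 0.076 to 0.38). Of 6 genes of the list with at least 100 UMIs in Sd10, 1 was past 1.5-fold higher and 0 past 1.5-fold lower. Over all 1488 genes with as many UMIs, 7.33% were at least 1.5-fold higher in KO and 2.55% at least 1.5-fold lower. In Sd9, 0 of 8 genes of the list were past 1.5-fold in either direction, against 6.33% higher and 0.904% lower of 2213 genes. Of the 1488 genes, 10 had a higher ratio in Sd10 than Cylc2.

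**Figure D3:**
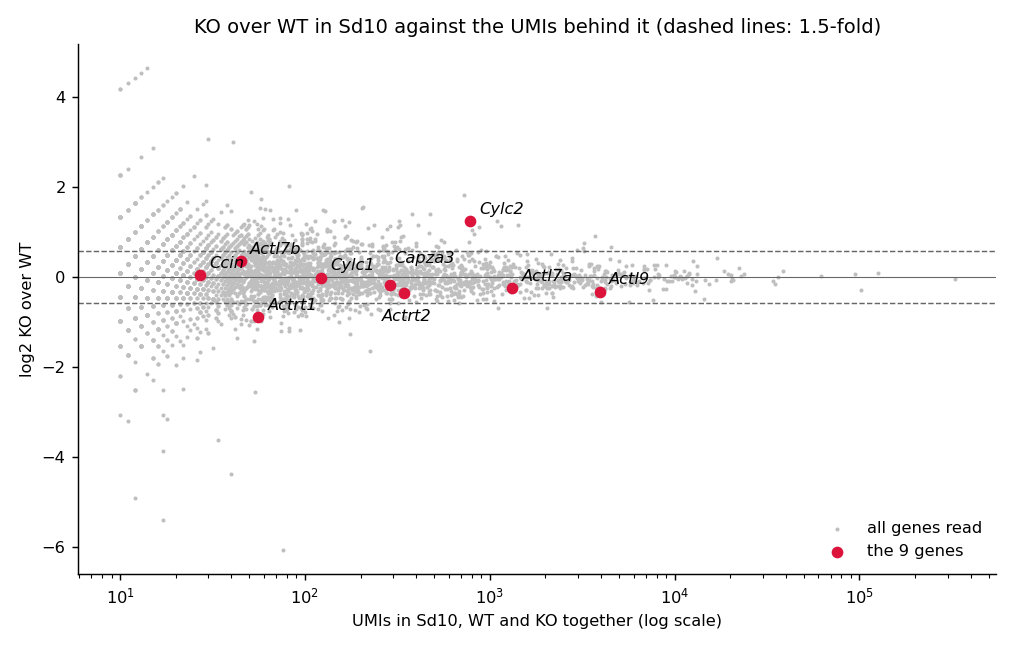
Log2 of KO over WT in Sd10 against the UMIs of the gene in both libraries (log axis), for all 3674 genes read (grey) and the 9 genes (red); dashed lines mark 1.5-fold. Cylc2 (1.24) lies above the upper line and Actrt1 (-0.89), with far fewer UMIs, below the lower one.

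The other genes differed less or in the other direction. Cylc1, the paralogue of Cylc2, had 51 UMIs in WT and 71 in KO in Sd10, at 40.7 and 40.3 CPM, with a log2 ratio of -0.015 (-0.55 to 0.53). That ratio was 0.40 (-0.45 to 1.31) with cells thinned to 3000 UMIs. The intervals of the 2 cylicins in Sd10 did not overlap. Capza3 had 129 and 161 UMIs, at a log2 ratio of -0.17 (-0.52 to 0.17), an interval that did not overlap with that of Cylc2 either. Ccin had 11 and 16 UMIs and Actl7b 16 and 29, which is too few to tell a 1.5-fold difference in Sd10.

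Actl9 and Actrt2 were lower in KO over most of their course. For Actl9 the log2 ratio was -0.17 in Sd5, -0.11 in Sd6, -0.27 in Sd7, -0.18 in Sd8, -0.16 in Sd9 and -0.33 in Sd10 (-0.42 to -0.24), and 7 of the 13 intervals lay below 0 and 0 above. For Actrt2 it was -0.15 in Sd5, -0.12 in Sd6, -0.18 in Sd7, -0.067 in Sd8, -0.35 in Sd9 and -0.36 in Sd10 (-0.68 to -0.052), with 9 intervals below 0 and 1 above, in Sc1. Over all genes read, the share of intervals below 0 was lowest in Sc1 (6.02%) and highest in Sc2 (23.2%). Actl7a had 607 UMIs in WT and 719 in KO in Sd10, a log2 ratio of -0.25 (-0.41 to -0.090). Actrt1 had 32 and 24 UMIs, a ratio of -0.89 (-1.74 to -0.098) that rests on few molecules. Of these 4 genes, Actrt1 alone was past 1.5-fold. With cells thinned to 3000 UMIs, which leaves fewer UMIs, the intervals of Actrt2 (-0.16, -0.67 to 0.36) and Actrt1 (-0.96, -2.44 to 0.36) in Sd10 and of Actl9 in Sd9 (-0.091, -0.20 to 0.019) included 0.

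**Figure D4:**
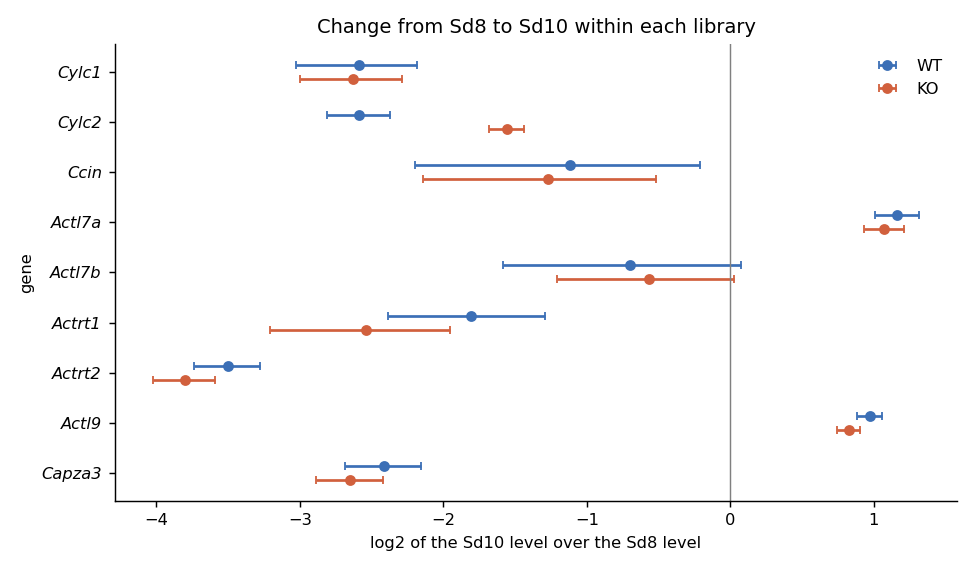
Log2 of the level in Sd10 over the level in Sd8 for each gene, in WT (blue) and KO (orange), with counting intervals. The WT and KO intervals of Cylc2 stand apart (-2.59 and -1.56), and those of the other 8 genes overlap between the libraries. Of all 4084 genes read, 3.60% had a KO interval above the WT interval and 3.11% below it.

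The course from Sd8 to Sd10 was also read within each library. Its KO minus WT difference uses the same Sd10 counts as the ratios above and is not independent of them. In both libraries 7 of the 9 genes were lower in Sd10 than in Sd8 and 2, Actl7a and Actl9, were higher; the interval of Actl7b included 0 in both. Over all 4084 genes read, 56.8% were lower in WT and 56.3% in KO. The median log2 change of the 9 genes was -1.81 in WT and -1.56 in KO, beside -0.19 and -0.18 over all genes. Without Ccin and Actl7b, whose rows rest on a rule for rare rows, the medians were -2.41 in WT and -2.54 in KO, so their order turned. Gene by gene the KO minus WT difference had a median of -0.145 over the 9, beside -0.013 over all genes, and was negative in 7. The steepest was Actrt2, at -3.50 in WT (-3.74 to -3.28) and -3.80 in KO (-4.03 to -3.59), where Sd10 was at 131 and 102 CPM after 1485 and 1418 in Sd8. Actl9 was at 0.97 in WT and 0.83 in KO, and Actl7a at 1.16 and 1.07.

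In WT the change from Sd8 to Sd10 was -2.59 for Cylc1 (-3.03 to -2.19) and -2.59 for Cylc2 (-2.81 to -2.37). In KO it was -2.63 for Cylc1 (-3.00 to -2.29) and -1.56 for Cylc2 (-1.68 to -1.44). Other starts gave no such match in WT: from Sd7 the WT changes were -3.82 and -3.06 and the KO changes -3.76 and -1.89, and from Sd9 they were -0.56 and -1.62 in WT and -0.90 and -0.76 in KO, Cylc1 before Cylc2. The KO minus WT difference of the change was 1.03 for Cylc2 (0.78 to 1.28) and -0.041 for Cylc1 (-0.57 to 0.49). For Cylc2 it was 1.18 from Sd7 and 0.86 from Sd9. From Sd8 it was -0.14 for Actl9 (-0.26 to -0.029), -0.30 for Actrt2 (-0.61 to 0.011), -0.24 for Capza3 (-0.58 to 0.11) and -0.73 for Actrt1 (-1.52 to 0.061). From Sd7 the difference of Actl9 was -0.055 (-0.17 to 0.059), so that call was lost, and from Sd9 that of Actrt2 was -0.012 and that of Actl7a -0.28 (-0.49 to -0.068), which lay below 0. Of the 4084 genes, 303 had a higher difference than Cylc2, genes with few UMIs included.

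The same Cylc2 UMIs of Sd10 were also counted per cell, which adds no replicate. In WT 110 of 184 cells (59.8%) had no UMI of Cylc2, 34 had 1 UMI, 26 had 2 or 3 and 14 (7.61%) had 4 or more, with a median of 0 UMIs. In KO 54 of 278 cells (19.4%) had none, 84 had 1 UMI, 90 had 2 or 3 and 50 (17.99%) had 4 or more, with a median of 2 UMIs. Thus 40.2% of WT cells (interval 33.1 to 47.7) and 80.6% of KO cells (75.4 to 85.1) had a UMI.

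With each cell thinned to 3000 UMIs, which left out 0 cells, 26.6% of WT and 58.3% of KO cells of Sd10 had a Cylc2 UMI. The thinned shares were 26.5% in WT and 26.7% in KO in Sg, at median depths of 6133 and 5859 UMIs, 23.1% and 27.3% in Sc1, 9.84% and 10.6% in Sc2, and 8.38% and 10.6% in Sd1. The WT share in Sd10 was thus close to that in Sg and above those in Sc2 and Sd1, and the KO share was above all 4. In Sd9 the unthinned shares were 82.4% in WT and 92.6% in KO, and in Sd8 96.1% and 96.8%. The thinned shares of Cylc1 in Sd10 were 7.61% in WT and 11.5% in KO, both under those in Sg of 14.2% and 15.3%.

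**Figure D5:**
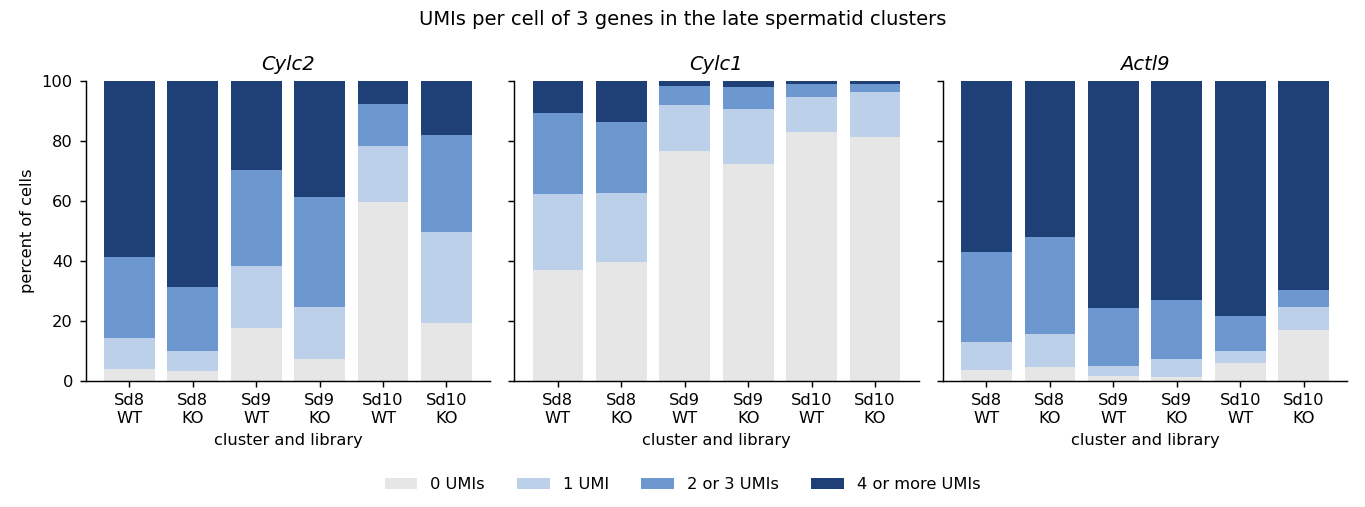
Percent of cells with 0, 1, 2 or 3, and 4 or more UMIs of Cylc2, Cylc1 and Actl9 in Sd8, Sd9 and Sd10 of each library (stacked bars, 100% per bar). Cells without a Cylc2 UMI make up 59.8% of WT and 19.4% of KO in Sd10, while cells without an Actl9 UMI make up 5.98% and 16.9%.

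Sd10 differed between the 2 libraries in values other than those of Cylc2. Whether its make-up or the expression in its cells differed cannot be told apart. Cells without a UMI of Actl9, a gene highest in this cluster, were 11 of 184 in WT (5.98%) and 47 of 278 in KO (16.9%). Among the late markers, Oaz3 was at 30623 CPM in WT and 31904 in KO, Prm2 at 110257 and 107681, Prm1 at 38041 and 31101, and Tnp1 at 2313 and 1580. The median mitochondrial share was 0.491% of UMIs in WT and 0.686% in KO. Outside the marker lists, 5 genes picked after their values were seen were higher in WT: Cd74 with 75 UMIs in WT, all in 2 cells, and 1 in KO, Ctsl with 38 and 2, Cst9 with 31 and 3, Cst12 with 17 and 0, and B2m with 16 and 2. A UMI of any of them was found in 31 WT cells (16.9%) and 8 KO cells (2.88%), and without these cells the log2 ratio of Cylc2 was 1.36 (1.09 to 1.65). A cell without a UMI of these genes may still hold their RNA, so leaving cells out does not decide their part. What part any of these differences had in the result for Cylc2 was not tested.

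The genes whose course over the 13 WT clusters was most like that of each of the 9 were sought among 4299 genes with at least 1000 UMIs, by the Pearson correlation of log2(CPM + 1). For Cylc2 they were Allc (0.995), Gm16541 (0.994) and Capza3 (0.994), and in KO these correlations were 0.985, 0.983 and 0.973. For Capza3 they were Cylc2, Gm16541 and Chd5 (0.994, 0.993 and 0.991 in WT, and 0.973, 0.991 and 0.989 in KO). In WT Cylc2 and Capza3 were thus each among the 3 nearest genes of the other, and in KO 24 genes were nearer to Cylc2 than Capza3 was.

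For Cylc1 the nearest genes were 1700061N14Rik, 1700030N03Rik and Spata19, a gene of the sperm mitochondrial sheath, at 0.983 to 0.987 in WT. For Ccin they were Ccser2, Tmigd3 and 1700008N11Rik, at 0.980 to 0.984, all highest in Sd5. For Actl7a they were Gm11213, 9330104G04Rik and Llcfc1, at 0.979 to 0.993. For Actl7b they were 5330438D12Rik, Gm5142 and Tmem232, at 0.967 to 0.982, all highest in Sd4. For Actrt1 they were Spata21, Gm9059 and 1700003E24Rik, at 0.991 to 0.993, and for Actrt2 Cdc14b, Gm14773 and Fam71d, at 0.977 to 0.983. For Actl9 they were Dcun1d1, Glrx2 and 1700034I23Rik, at 0.982 to 0.987, all highest in Sd10. Over the 36 pairs within the list the correlation ran from -0.50 (Actl7b with Actl9) to 0.99 in WT with a median of 0.77, and from -0.40 to 0.98 in KO with a median of 0.77. The points of these correlations share 1 library and its depth.

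Other genes of the theca and of the attachment of acrosome and nucleus were read from a list of 17, of which 14 had 1 possible row. In Sd10, 3 of the 14 were higher in KO with intervals above 0, 0 were lower, and 11 had intervals that included 0, beside 11.1% of all genes above 0 and 9.06% below. The median log2 ratio of the list was 0.22, and 0.043 over all genes. Plcz1, the sperm factor that starts egg activation, had 490 UMIs in WT and 969 in KO, at 391 and 549.9 CPM, a ratio of 0.49 (0.33 to 0.65). Spaca1, an acrosomal membrane protein, had 9 and 29 UMIs, and Fam209 had 18 and 45. In Sd9, 4 were higher (Plcz1, Fam209, Zpbp and Zpbp2), 3 were lower (Gsto2, Spaca9 and Pfn3) and 7 had intervals that included 0, beside 14.3% of all genes above 0 and 6.71% below. The intervals of the actin-like relatives in that list included 0 in Sd10, with Actl11 at 127 and 137 CPM and Actrt3 at 15 and 13 UMIs.

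A list of 25 ubiquitous actins, capping proteins and actin regulators had 13 genes with 1 possible row, of which 11 could be read in Sd10. Of these, 2 were higher in KO with intervals above 0, 0 were lower and 9 had intervals that included 0, beside 11.1% of all genes above 0 and 9.06% below. The median of the list was -0.10, and 0.043 over all genes. Cfl2, a cofilin that severs actin filaments, had 81 UMIs in WT and 300 in KO, at 64.7 and 170.2 CPM, a log2 ratio of 1.39 (1.04 to 1.77). Unlike Cylc2, Cfl2 was highest in Sc1, and in Sd9 its ratio was 0.097 (-0.10 to 0.30). Arpc2, a subunit of the ARP2/3 complex, had 47 and 96 UMIs, a ratio of 0.53 (0.020 to 1.07). Actb, the cytoplasmic β-actin, was at 549 CPM in WT and 511 in KO, a ratio of -0.10 (-0.25 to 0.040).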

How the data were processed

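Per the labels and the methods of the study, the authors trimmed reads with fastp, aligned them with STAR 2.5.3a to mm10, assigned them to genes with featureCounts 1.6.2 and collapsed them to UMIs. The deposited values are raw counts of UMIs, for cells integrated, filtered and clustered by the authors in Seurat 3.2.3. The filter limits are not given in the sources used here. The deposited cell table holds library, cluster, number of genes and the percent of mitochondrial UMIs of each cell. No cell was left out and no doublet caller was run.

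The symbol list (25065 lines) is shorter than the matrix (26758 rows). The 30 mitochondrial symbols were placed on the rows whose UMIs give the mitochondrial percent, exactly in 12408 of 12408 cells. Rows seen in fewer than 5 cells were allowed to lack a symbol, and symbols with 1 possible row (86.9% of UMIs) were used. Without that allowance 7 of the 9 genes have 1 possible row, all but Ccin and Actl7b.

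For each library, UMIs were added up over the cells of a cluster and expressed as CPM, with exact Poisson intervals. Log2 ratios have a prior of 1 UMI shared by depth and intervals from the exact binomial split. Genes with at least 10 UMIs were read, and those with at least 100 were set against 1.5-fold. Shares of cells have Clopper-Pearson intervals. Python 3.11.15, numpy 2.4.6 and scipy 1.17.1 were used, tested on simulated data. UMIs are counted once per molecule, but intervals cover counting error only. Named genes are the 9 genes, the 3 most alike of each, and the members of both further lists with 1000 UMIs. The genes, lists and markers were chosen with earlier results of these data known, and support nothing independently. Alternatives were other totals, equal weight per cell, thinned cells, the deepest 5% of cells left out, centring, another prior or minimum, and other starting clusters.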

Additional observations from a re-analysis of the deposited data

How the results depend on the processing

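With 1 library per genotype no replicate could be left out. No paired analysis was possible because each genotype is a single library. The log2 ratio of Cylc2 in Sd10 stayed between 1.19 and 1.51 in 9 alternatives, and its KO minus WT difference of the change from Sd8 to Sd10 between 0.86 and 1.29 in 8. The median change of the 9 genes was -2.43 in WT and -2.38 in KO when counted from Sd7, -1.01 and -0.90 when counted from Sd9, and -2.41 and -2.54 without Ccin and Actl7b, whose rows rest on the rule for rare rows, so the order of the libraries turns there; by construction the span is longer from Sd7 and shorter from Sd9. Centring on the median of all genes ended the Sd9 call of Cylc1, at 0.23, as did totals without Prm1, Prm2, Tnp1 and Tnp2, at 0.30, while equal weight per cell gave 0.58. The Sd9 ratio of Actl7b was 0.72 (0.13 to 1.34) without the deepest cells, an interval above 0. Thinning moved the Sd10 ratio of Actrt2 to -0.16 and ended its call, that of Actrt1 in Sd10 and that of Actl9 in Sd9. A split of Sd10 by Actl9 UMIs, chosen after seeing the data, gave Cylc2 ratios of 1.30 and 1.19; Actl9 itself differs between the libraries, so the split does not match cells by stage. Leaving out Sd10 cells with a UMI of Cd74, Ctsl, Cst9, Cst12 or B2m, also chosen after seeing the data, gave 1.36. No ratio in Sd9 or Sd10 and no change from Sd8 to Sd10 whose interval left out 0 turned its sign. With cells thinned to 3000 UMIs, the Sd10 ratio of Cylc1 was 0.40 and that of Actl7b was -0.062. The cause of these moves was not tested. Totals without Prm1, Prm2, Tnp1 and Tnp2 moved 9 of 18 changes from Sd8 to Sd10, and turned none. Depth limits Ccin (11 and 16 UMIs), Actl7b (16 and 29) and Actrt1 (32 and 24) in Sd10.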
